A study of Mus musculus with 12 samples.

Results

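The transcripts of 10 Toll-like receptor (TLR) and partner genes were followed in mouse splenic follicular (FO) B cells: *Tlr1*, *Tlr3*, *Tlr4*, *Tlr6*, *Tlr7*, *Tlr9*, *Unc93b1*, *Myd88*, *Cd180* and *Ly86*. They were taken by gene symbol from the count table, which lists 22561 genes, and all 10 were present. FO B cells of C57BL6 mice aged 10 weeks were sorted by fluorescence on surface markers that included B220hi, AA4.1-, CD23+ and CD21mid, and fell into 4 groups of 3 samples each. Unstimulated cells (Unstimulated) were compared with cells given IFNα at 0.1 μg/mL, the TLR9 agonist CpG (ODN1826, a synthetic oligodeoxynucleotide) at 1 μg/mL, or CpG + IFNα at those doses, all for 12 h. The study's descriptions of the combined group differ: another legend for these libraries has 0.1 μg/mL of CpG there, so that its CpG dose may have been lower than in CpG alone. The sources used here do not give whether unstimulated cells spent that time in culture. Libraries were made by BRB (bulk RNA barcoding) sequencing. Its reads lie near the 3′ end of a transcript and carry a unique molecular identifier (UMI), so that each count is 1 molecule and does not grow with the length of the gene. The labels do not say whether replicates came from separate mice, so that the p-values below measure the spread between samples only.

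TLRs are pattern recognition receptors, and B cells are unusual among lymphocytes in expressing several of them beside their antigen receptor. TLR3, TLR7 and TLR9 sense nucleic acids from inside endosomes, where the chaperone UNC93B1 carries them, whereas TLR1, TLR4 and TLR6 act mainly at the cell surface. All of these receptors except TLR3 signal through the adaptor MyD88. CD180 (RP105) is a TLR-like surface protein without a signalling domain of the TLR type, and it is held at the surface by its partner MD-1, the product of *Ly86*.

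On GRCm38, *Tlr9* lies at chr9:106222598-106226883 on the plus strand, *Tlr7* at chrX:167304929-167330558 on the minus strand and *Tlr3* at chr8:45395665-45411080 on the minus strand. *Unc93b1* is at chr19:3935186-3949340 (plus) and *Myd88* at chr9:119335934-119341411 (minus). *Tlr1* (chr5:64924679-64933563) and *Tlr6* (chr5:64952031-64960097) are neighbours on the minus strand of chromosome 5, and *Tlr4* is at chr4:66827584-66930284 (plus). *Cd180* (chr13:102693558-102739629) and *Ly86* (chr13:37345208-37419036) are both on the plus strand of chromosome 13. The authors counted *Tlr9* with 3 kb added to its annotated end, a stretch in which the annotation used here has 0 genes. The next gene, *Alas1*, starts 6571 bp beyond the annotated end of *Tlr9*. Exons of *Tlr3*, *Cd180* and *Myd88* overlap exons of a gene on the opposite strand (*Gm45542*, *Mast4* and *Acaa1a*) over 381, 182 and 290 bp, and whether counting used strand is not given in the sources used here. Of the 50-base words in the last 600 bases of their annotated transcripts, 9.65% of those of *Tlr1* occur in other genes (31 of 922 in *Tlr6*), against 2 of 948 for *Tlr6* and 1 of 1954 for *Tlr4*. The other members share 0. Low counts of *Tlr1* and *Tlr6* are therefore uncertain to that extent.

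Totals ran from 922450 to 2923865 UMI counts per sample, the highest being of CpG + IFNα. No 2 replicates agreed within sampling noise, with a chi-square per degree of freedom of at least 2.02. Levels are given as CPM (counts per 1000000 of the library total, scaled by TMM factors). Among B cell markers, *Ms4a1* (CD20) fell 5.70-fold with CpG (edgeR adjusted p = 5.83e-19) and 5.87-fold with CpG + IFNα (adjusted p = 2.15e-19), and *Cd79a*, a chain of the antigen receptor complex, fell 17.4-fold (adjusted p = 4.49e-22) and 30.2-fold (adjusted p = 9.76e-24). Neither was called with IFNα (edgeR adjusted p = 0.68 and 0.313). *Fcer2a* and *Cr2*, which encode the sorting markers CD23 and CD21, fell 5.08-fold (edgeR adjusted p = 2.67e-15) and 5.19-fold (adjusted p = 4.85e-13) with IFNα. *Fcer2a* stood at 1227 CPM in Unstimulated, 244 in IFNα, 21.3 in CpG and 8.15 in CpG + IFNα, and *Cr2* at 412, 81.5, 32.8 and 14.0 CPM in the same order, so that little of either transcript behind the gate was left in both CpG groups. Group means of the summed markers of other cells ran from 27.7 to 186 CPM for erythroid cells, 56.3 to 129 for plasma cells, 13.1 to 42.9 for plasmacytoid dendritic cells, 6.39 to 13.8 for conventional dendritic cells and 1.45 to 2.22 for T cells. Of the 4 marginal zone B cell markers tested, *Dtx1* fell from 171 to 40.8 CPM with CpG and *Cd1d1* from 33.7 to 0.442 CPM, whereas *Plxnd1* rose from 5.60 to 94.9 CPM (edgeR adjusted p = 1.23e-14, 1.04e-11 and 1.95e-15). *Cd1d1* passed the filter on low counts described below through its unstimulated samples alone, so that the filter itself favoured a fall for it. Mitochondrial genes took 5.91% to 8.52% of counts without CpG and 2.99% to 4.85% with it. The part of these shifts in the results below was not tested. In bulk samples, fewer cells of a type and less RNA per cell cannot be told apart.

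**Figure D1:**
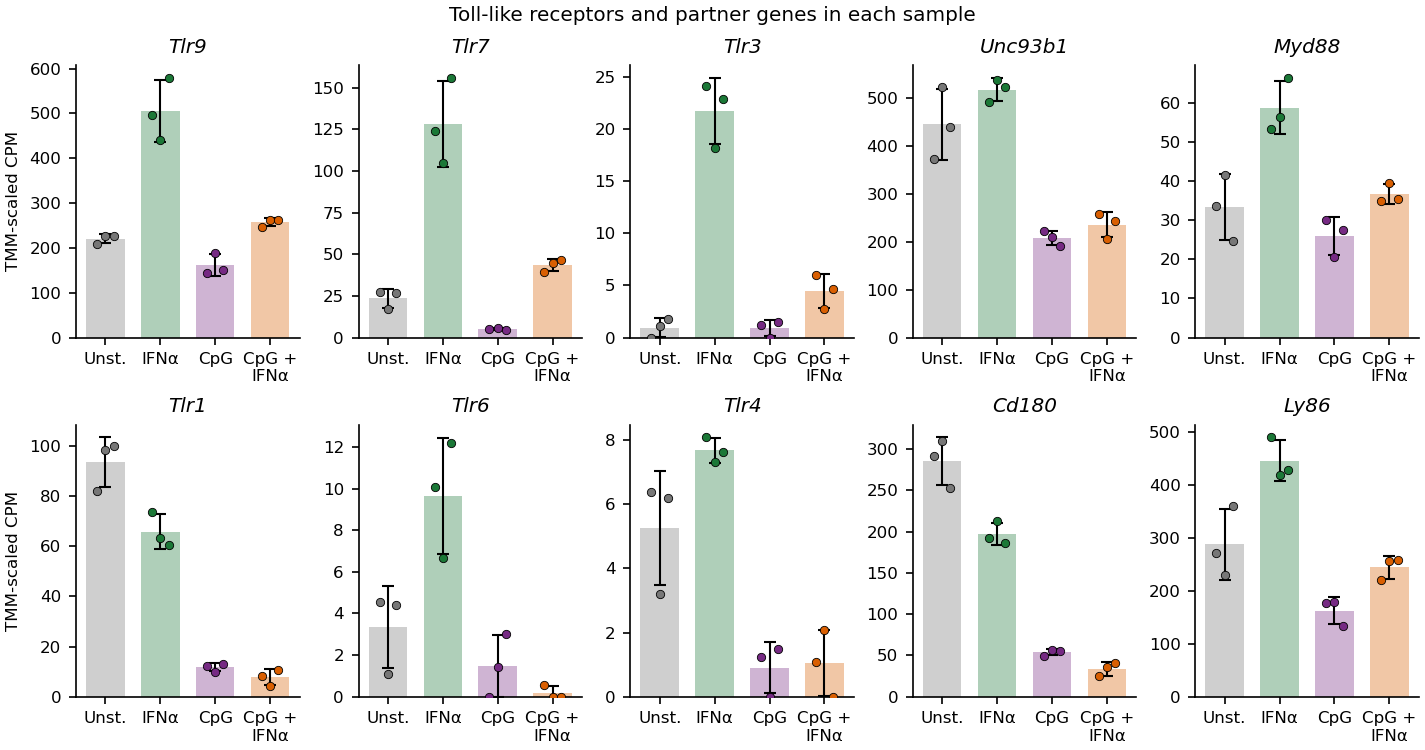
TMM-scaled CPM (y axis, from 0, its own scale for each gene) of the 10 genes in the 4 groups (x axis). Points are the 3 samples, bars the mean and whiskers 1 SD. The means of *Tlr9*, *Tlr7*, *Tlr3*, *Ly86*, *Myd88*, *Unc93b1*, *Tlr4* and *Tlr6* were highest with IFNα, whereas those of *Tlr1* and *Cd180* were highest in unstimulated cells. For *Unc93b1* and *Tlr4* the difference of IFNα from unstimulated cells was not called.

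A filter on low counts left 9431 genes for edgeR's quasi-likelihood test and kept 9 of the 10 members. *Tlr6*, with 57 counts in all, was not kept. *Tlr3* and *Tlr4* passed through their IFNα samples alone, so that the filter itself favoured a level higher with IFNα for these 2, and the counts are read over the other 7 members. A gene was called up-regulated or down-regulated at a Benjamini-Hochberg adjusted p under 0.1. With IFNα alone, 4 of the 7 were up-regulated (*Tlr9*, *Tlr7*, *Ly86* and *Myd88*), against 12.4% of all genes tested, and 2 were down-regulated (*Tlr1* and *Cd180*), against 11.9%. With CpG alone, 6 were down-regulated, against 38.4% of all genes, and 0 were up-regulated, against 36.5%. The member of the 7 without a call was *Myd88*. By DESeq2 and at an unadjusted p under 0.05, the number up-regulated by CpG was also 0. With CpG + IFNα against unstimulated cells, 2 were up-regulated (*Tlr7* and *Tlr9*, against 37.6% of all genes) and 3 down-regulated (*Tlr1*, *Unc93b1* and *Cd180*, against 38.8%), shares near the background.

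Since the CpG dose of the combined group is not settled, CpG + IFNα against CpG may differ in dose as well as in IFNα. Adding IFNα to CpG up-regulated 4 of the 7 (*Tlr9*, *Tlr7*, *Ly86* and *Myd88*), where 6.54% of all genes rose, and down-regulated *Cd180*, where 8.83% fell. The comparisons share samples with each other and are not independent. Adding CpG to IFNα down-regulated all 7, against 39.8% of all genes, and up-regulated 0, against 36.1%, which was also the number by DESeq2 and at an unadjusted p under 0.05. The median log2 fold change of the 7 members was 0.62 with IFNα and -1.10 with CpG, and that of all genes tested was -0.0012 and -0.03. With library totals as the only scaling, the share of up-regulated genes among all calls with IFNα was 38.4% in place of 51.1%, and with upper-quartile factors 40.5%. Upper-quartile factors moved the median of all genes by -0.11 with CpG and by -0.13 with CpG + IFNα, both against unstimulated cells. Members' calls that changed with the scaling are given with each member.

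*Tlr9*, the receptor for CpG itself, had 209, 226 and 226 CPM in the unstimulated samples and 497, 441 and 578 CPM with IFNα. With CpG it had 144, 190 and 151 CPM, and with CpG + IFNα 247, 263 and 263 CPM. No 2 groups overlapped, in the order CpG, Unstimulated, CpG + IFNα, IFNα. IFNα up-regulated *Tlr9* 2.29-fold (log2 1.20 ± 0.12 SE, edgeR adjusted p = 1.33e-09). CpG down-regulated it 1.37-fold (log2 -0.45 ± 0.13, edgeR adjusted p = 0.00219). In the presence of CpG, IFNα raised it 1.60-fold (log2 0.68 ± 0.12, edgeR adjusted p = 9.21e-05). CpG + IFNα stood 1.17-fold above unstimulated cells (log2 0.23, 95% interval -0.02 to 0.47, edgeR adjusted p = 0.0925), a call that was lost with DESeq2 (adjusted p = 0.156), with 3 other scalings, with a stricter filter, with counts thinned to the smallest total, and without Unstimulated replicate 1 (log2 0.21) or 3 (0.27) or CpG + IFNα replicate 2 (0.24) or 3 (0.23).

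The effect of IFNα on *Tlr9* was smaller with CpG than without it by 0.52 ± 0.17 on the log2 scale (edgeR adjusted p = 0.0507). The CpG dose of the combined group is not settled, and whether unstimulated cells were cultured is not given. This and every other interaction may therefore also carry a difference in dose or in culture, which was not tested. Of the 9 members tested, *Tlr9* had an interaction that passed the test, with a value below 0, and the other 8 did not. Over all genes tested, 7.58% passed with a value below 0 and 5.84% with a value above it. The count of members is near these shares and is not read as a trait of the members. Without a filter on low counts, *Tlr9* did not pass (-0.46, adjusted p = 0.147) and *Tlr6* did. At an unadjusted p under 0.05 the interaction was below 0 for 2 members (*Tlr9* and *Tlr3*) and above it for 0, and by DESeq2 it passed for 0 (*Tlr9* adjusted p = 0.117). *Tlr3* passed the filter through its IFNα samples alone, which favours an interaction below 0, so that its value is not read as a result. The *Tlr9* interaction also missed the threshold with library totals as the only scaling (-0.44, adjusted p = 0.109), and without Unstimulated replicate 1 (-0.49) or 3 (-0.47), IFNα replicate 3 (-0.42) or CpG replicate 2 (-0.41). Over all genes, 43.5% of the interactions that passed were above 0, and 55.4% with library totals as the only scaling or 55.0% without mitochondrial and rRNA genes.

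*Tlr7*, the endosomal receptor for single-stranded RNA, had 27.3, 17.1 and 26.5 CPM in unstimulated cells and 124, 105 and 156 CPM with IFNα. It had 4.91, 5.70 and 4.49 CPM with CpG, from 8 or 9 counts per sample, and 39.3, 44.9 and 46.3 CPM with CpG + IFNα. The groups were apart in the same order as for *Tlr9*, with a larger fold between the lowest and the highest group. IFNα up-regulated *Tlr7* 5.32-fold (log2 2.41 ± 0.19, edgeR adjusted p = 3.07e-12), and CpG down-regulated it 4.75-fold (log2 -2.25 ± 0.31, edgeR adjusted p = 1.54e-07). Adding IFNα to CpG raised it 8.65-fold (log2 3.11 ± 0.25, edgeR adjusted p = 1.26e-11), to 1.82 times the unstimulated level (log2 0.86 ± 0.21, edgeR adjusted p = 0.000401). Its interaction was 0.70 on the log2 scale (95% interval -0.03 to 1.43, edgeR adjusted p = 0.243), so that a difference between the effects of IFNα with and without CpG was not shown.

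*Tlr3*, the endosomal receptor for double-stranded RNA, was close to the limit of detection in unstimulated cells (0, 1 and 2 counts) and with CpG (2, 0 and 3 counts). With IFNα it had 24, 30 and 30 counts, or 21.8 ± 3.14 CPM (SD, n = 3). With CpG + IFNα it had 11, 8 and 9 counts, or 4.46 ± 1.63 CPM. The IFNα samples were thus above all others, and the CpG + IFNα samples above the other 2 groups, which overlapped. The ratio of scaled counts was 22.5 for IFNα against unstimulated cells, with a 95% counting interval of 7.43 to 111, and 4.22 for CpG + IFNα against CpG, with an interval of 1.61 to 14.0. Both were called (edgeR adjusted p = 3.16e-07 and 0.0332). The first rests on a gene that was tested only because its IFNα samples passed the filter, and its fitted fold change ran from log2 3.82 to 5.21 (without Unstimulated replicate 3) with 1 sample left out, against 4.39 with all. The second was not called with counts thinned to the smallest total (adjusted p = 0.151), without CpG replicate 2 (log2 1.57, adjusted p = 0.139) or without CpG + IFNα replicate 1 (log2 1.76, adjusted p = 0.122). CpG + IFNα was also called above unstimulated cells (ratio 4.43, counting interval 1.37 to 22.8, edgeR adjusted p = 0.0138), with a fitted log2 difference of 2.08 that was 2.95 without Unstimulated replicate 3. Compared with IFNα alone, CpG + IFNα gave a 4.98-fold lower level (log2 -2.32 ± 0.36, edgeR adjusted p = 7.68e-07). Markers of myeloid cells, which also express *Tlr3* and *Tlr7*, summed to 17.6 to 44.9 CPM in Unstimulated, 199 to 271 in IFNα, 9.98 to 10.7 in CpG and 113 to 136 in CpG + IFNα. Of the 9 genes listed, 8 were in the table and 1 (*Mpeg1*) was tested. *Mpeg1* stood at 15.7 CPM in Unstimulated, 235 in IFNα, 7.67 in CpG and 121 in CpG + IFNα, and made up nearly all of the sum in the 2 groups with IFNα. *Adgre1* (F4/80) had 1, 3 and 1 counts in unstimulated cells, 8, 11 and 17 with IFNα, 1, 1 and 4 with CpG and 0 in each CpG + IFNα sample, and *Fcer1g* had 0 to 4 counts in every group. *Lyz2*, *Csf1r*, *Cd14*, *Itgam* and *S100a8* had 0 counts in each IFNα sample. In unstimulated cells *Lyz2* had 4, 9 and 3 counts, *Csf1r* 2, 7 and 1, *Itgam* 2, 2 and 0, *Cd14* 0, 2 and 1 and *S100a8* 1, 0 and 0. *Itgam* with CpG and with CpG + IFNα, and *Csf1r* with CpG + IFNα, also had a few counts. Of the 5 markers of plasmacytoid dendritic cells, *Siglech* and *Klk1* had 0 counts in all 12 samples and *Ccr9* 1 to 13 per sample. *Cox6a2* stood at 0.357, 4.02, 9.59 and 18.4 CPM in Unstimulated, IFNα, CpG and CpG + IFNα. Its rise with IFNα (edgeR adjusted p = 0.0247) rests on 0, 1 and 0 counts in unstimulated cells against 5, 4 and 6. *Cox6a2* passed the filter through its CpG + IFNα samples alone. *Pacsin1* stood at 31.5 and 33.7 CPM without CpG and 1.45 or less with it (group means). Of the 4 T cell markers in the table, *Cd3g* and *Cd8a* had 0 counts throughout, *Cd3d* 0 to 2 per sample and *Trac* 1 to 8. The part of these other cells in the results was not tested.

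*Unc93b1*, the chaperone of the endosomal TLRs, had 373, 522 and 439 CPM in unstimulated cells and 491, 538 and 522 CPM with IFNα. These groups overlapped, and the log2 difference of 0.22 (95% interval -0.02 to 0.46) was not called (edgeR adjusted p = 0.208), although it was without Unstimulated replicate 2 (log2 0.35). It had 222, 210 and 192 CPM with CpG and 258, 206 and 242 CPM with CpG + IFNα, each below every sample without CpG. CpG down-regulated *Unc93b1* 2.14-fold (log2 -1.10 ± 0.12, edgeR adjusted p = 1.75e-09). With IFNα added it remained 1.89-fold below unstimulated cells (log2 -0.92 ± 0.12, edgeR adjusted p = 3.84e-08), and the difference of 0.18 from CpG alone (95% interval -0.07 to 0.42) was not called (edgeR adjusted p = 0.414).

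Ratios of 2 genes' counts in 1 library need no scaling between libraries. The size of a ratio does not compare levels, but its change between groups shows that the 2 genes moved unequally. *Tlr9* per *Unc93b1* was 0.502 ± 0.0651 in Unstimulated, 0.980 ± 0.147 in IFNα, 0.781 ± 0.126 in CpG and 1.11 ± 0.159 in CpG + IFNα. Every stimulated sample was thus above the unstimulated ones, whereas IFNα and CpG + IFNα overlapped (exact two-sided permutation p = 0.5). *Tlr7* per *Tlr9* was 0.108 ± 0.0285, 0.252 ± 0.0162, 0.0313 ± 0.00241 and 0.168 ± 0.00863 in the same order, with no overlap between any 2 groups. *Tlr1* per *Tlr9* was 0.423 ± 0.0275, 0.132 ± 0.0240, 0.0745 ± 0.0190 and 0.0304 ± 0.0122, again with no overlap. Of 20 such comparisons, 19 did not overlap and gave an exact two-sided permutation p of 0.1, the smallest that 3 against 3 samples allow (0.105 after Benjamini-Hochberg adjustment). The same count was not taken for pairs of other genes, so that it is not read as a trait of these genes.

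**Figure D2:**
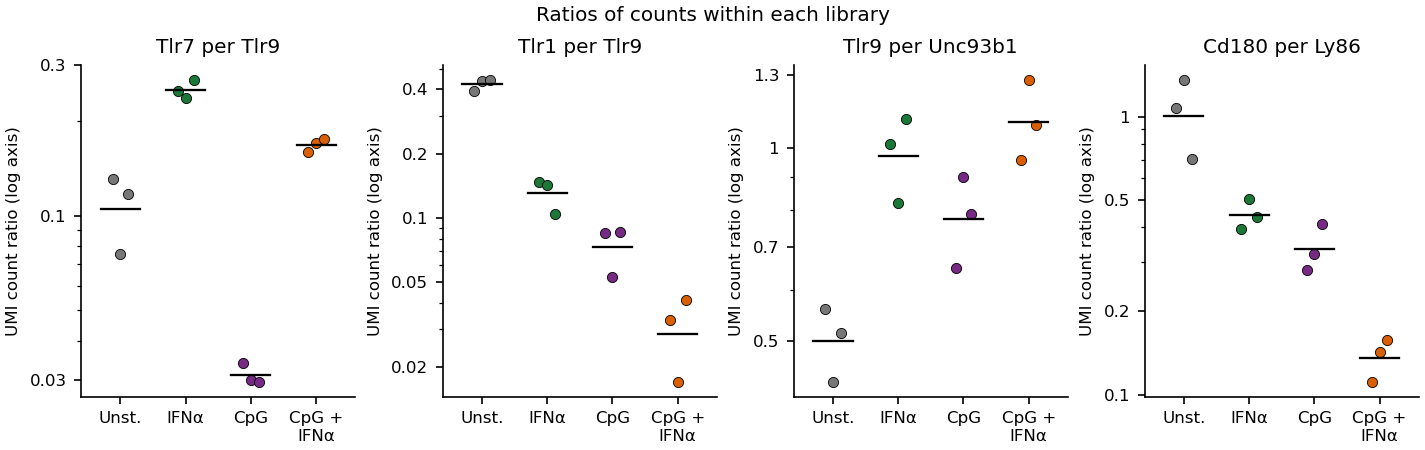
Ratio of the UMI counts of 2 genes within each library (log axis) in the 4 groups, with 3 samples as points and their geometric mean as a line. *Tlr7* per *Tlr9* was lowest with CpG, and *Cd180* per *Ly86* was highest in unstimulated cells and lowest with CpG + IFNα.

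*Myd88*, the signalling adaptor, had 33.7, 41.7 and 24.7 CPM in unstimulated cells and 53.5, 56.5 and 66.4 CPM with IFNα. IFNα up-regulated it 1.79-fold (log2 0.84 ± 0.19, edgeR adjusted p = 0.00147), and these groups did not overlap. With CpG it had 30.1, 20.7 and 27.5 CPM, which overlapped the unstimulated samples. The log2 difference of -0.32 (95% interval -0.75 to 0.10) was not called (edgeR adjusted p = 0.168), but it was with upper-quartile factors (-0.43, adjusted p = 0.0688), with a stricter filter (-0.45, adjusted p = 0.054) and without Unstimulated replicate 3 (-0.53, adjusted p = 0.0406). CpG + IFNα gave 34.9, 39.7 and 35.5 CPM, above CpG alone by 0.49 ± 0.18 on the log2 scale (edgeR adjusted p = 0.0833). That call was lost with DESeq2 (adjusted p = 0.207), with upper-quartile factors (0.102), with counts thinned to the smallest total (0.331), and without CpG replicate 2 (log2 0.36) or 3 (0.52) or CpG + IFNα replicate 1 (0.52), 2 (0.42) or 3 (0.51).

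Promoters are shown for 4 members that were higher with IFNα, *Tlr3* among them, which passed the filter through its IFNα samples. The RefSeq table (GRCm38.p6) held a start for 7 of the 10 members and none was matched for *Tlr7*, *Unc93b1* and *Tlr4*. Each sequence is the 250 bases before the start, 5′ to 3′ on the strand of the gene, at chr9:106222348-106222597 (plus) for *Tlr9*, chr8:45410381-45410630 (minus) for *Tlr3*, chr9:119340019-119340268 (minus) for *Myd88* and chr13:37345095-37345344 (plus) for *Ly86*. For the last 3 the RefSeq start lies inside the gene span given above. Capitals mark the motifs found.
Tlr9: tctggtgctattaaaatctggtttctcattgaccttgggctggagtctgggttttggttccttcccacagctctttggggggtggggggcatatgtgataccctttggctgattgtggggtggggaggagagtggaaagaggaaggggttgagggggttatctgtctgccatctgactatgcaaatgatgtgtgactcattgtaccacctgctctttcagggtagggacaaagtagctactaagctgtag
Tlr3: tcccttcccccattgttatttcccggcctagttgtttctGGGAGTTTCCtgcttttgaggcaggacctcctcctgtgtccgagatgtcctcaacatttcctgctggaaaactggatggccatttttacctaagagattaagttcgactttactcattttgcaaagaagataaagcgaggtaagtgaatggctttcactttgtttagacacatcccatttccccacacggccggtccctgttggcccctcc
Myd88: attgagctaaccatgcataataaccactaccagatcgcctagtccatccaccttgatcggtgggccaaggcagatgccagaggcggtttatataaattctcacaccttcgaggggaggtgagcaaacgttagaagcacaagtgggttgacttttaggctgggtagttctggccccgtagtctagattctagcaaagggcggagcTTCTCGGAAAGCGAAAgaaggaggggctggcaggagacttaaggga
Ly86: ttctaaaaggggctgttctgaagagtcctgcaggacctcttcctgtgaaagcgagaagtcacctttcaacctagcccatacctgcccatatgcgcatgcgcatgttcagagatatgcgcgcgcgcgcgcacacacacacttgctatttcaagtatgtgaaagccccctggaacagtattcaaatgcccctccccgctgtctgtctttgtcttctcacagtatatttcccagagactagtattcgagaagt

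Both strands were searched for the interferon-stimulated response element (ISRE, GAAANNGAAA), the ETS-IRF composite element (EICE, GGAANNGAAA), the gamma-activated sequence (GAS, TTCNNNGAA) and the κB consensus, of which the first 3 can overlap. The promoter of *Myd88* held an ISRE 40 bases before the start that shares bases with a GAS 46 bases before it. In *Tlr3* a κB match began 211 bases before the start, and the windows of *Tlr9* and *Ly86* held none of these letters. Among members not shown, 1 of the starts of *Tlr6* had overlapping ISRE matches 116 and 110 bases upstream and 1 of the starts of *Tlr1* a GAS 228 bases upstream. Among all 32851 promoter windows of this length, 2.98% held the ISRE, 2.3% the EICE, 7.02% the GAS and 7.25% the κB consensus. A match describes the letters in a window and no binding was measured.

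Of the surface receptors, *Tlr4* and *Tlr6* had at most 16 counts in any sample, so that their values carry wide errors. *Tlr1*, which pairs with TLR2 to sense bacterial lipopeptides, had 81.9, 98.4 and 99.7 CPM in unstimulated cells and 73.7, 63.2 and 60.3 CPM with IFNα. IFNα down-regulated it 1.43-fold (log2 -0.51 ± 0.16, edgeR adjusted p = 0.0244), although not without IFNα replicate 3 (log2 -0.45, adjusted p = 0.102). *Tlr1* had 12.3, 9.98 and 12.98 CPM with CpG and 8.18, 4.49 and 10.8 CPM with CpG + IFNα. CpG alone lowered it 7.80-fold (log2 -2.96 ± 0.21, edgeR adjusted p = 2.76e-14), and CpG + IFNα lowered it 12.5-fold (log2 -3.64 ± 0.21, edgeR adjusted p = 2.51e-16). The 2 CpG groups overlapped, and their difference of -0.68 (95% interval -1.26 to -0.09) was not called (edgeR adjusted p = 0.139) except without CpG + IFNα replicate 3 (-0.99).

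*Tlr6*, which also pairs with TLR2, had 5, 1 and 5 counts in unstimulated cells, 10, 11 and 16 with IFNα, 0, 2 and 6 with CpG, and 1, 0 and 0 with CpG + IFNα. Its IFNα samples were above all others, and the CpG and CpG + IFNα samples overlapped. The ratio of scaled counts was 2.70 for IFNα against unstimulated cells (95% counting interval 1.35 to 5.87). It was 0.0160 for CpG + IFNα against IFNα (0.000394 to 0.0947), where the smaller total was 1 count against 37. In a fit without a filter, the log2 difference with IFNα was 1.44 ± 0.54 (edgeR adjusted p = 0.0759). In that fit CpG + IFNα was lower than unstimulated cells (-3.85, adjusted p = 0.000415) and than IFNα (-5.28, adjusted p = 6.53e-11), and the interaction was -4.24 (adjusted p = 0.0152), values that rest on 1 count in the 3 CpG + IFNα samples. The differences of CpG from unstimulated cells and of CpG + IFNα from CpG were not called (adjusted p = 0.292 and 0.129). Other alternatives in which *Tlr6* entered took it in through its IFNα samples, and their calls are not counted here.

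*Tlr4*, the receptor for lipopolysaccharide, had 7, 3 and 7 counts in unstimulated cells, 8, 12 and 10 with IFNα, 2, 0 and 3 with CpG and 2, 6 and 0 with CpG + IFNα. IFNα samples were higher than unstimulated ones after scaling, without overlap (7.67 ± 0.389 against 5.25 ± 1.77 CPM), but the log2 difference of 0.50 (95% interval -0.53 to 1.54) was not called (edgeR adjusted p = 0.551). The ratio of scaled counts with CpG against unstimulated cells was 0.185 (95% counting interval 0.0534 to 0.522, edgeR adjusted p = 0.00461). With CpG + IFNα it was 0.223 (0.0834 to 0.546, edgeR adjusted p = 0.00485). The fitted difference of -2.10 on the log2 scale was -3.12 without CpG + IFNα replicate 2. Against IFNα, CpG + IFNα was lower by a log2 difference of -2.60 (edgeR adjusted p = 0.000169), or -3.63 without that sample, in a gene that passed the filter through IFNα alone. For CpG + IFNα against CpG the ratio of scaled counts was 1.21 (95% counting interval 0.348 to 4.69), and a difference was not called (edgeR adjusted p = 0.909). Of 6 other TLR genes listed, *Tlr2* and *Tlr12* were in the table and neither passed the filter. *Tlr2*, the partner of TLR1 and TLR6, had 1 to 13 counts per sample and *Tlr12* 0 to 6.

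*Cd180* and *Ly86*, whose products form 1 surface complex, changed in opposite directions with IFNα. *Cd180* had 291, 310 and 253 CPM in unstimulated cells and 193, 212 and 186 CPM with IFNα, a 1.44-fold fall (log2 -0.53 ± 0.12, edgeR adjusted p = 0.0017). *Ly86* had 272, 230 and 360 CPM in unstimulated cells and 489, 418 and 427 CPM with IFNα, a 1.54-fold rise (log2 0.62 ± 0.13, edgeR adjusted p = 0.000728). Neither pair of groups overlapped.

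With CpG, *Cd180* was at 49.7, 57.0 and 54.9 CPM, 5.28-fold below unstimulated cells (log2 -2.40 ± 0.14, edgeR adjusted p = 2.16e-16). With CpG + IFNα it was at 24.5, 36.6 and 40.6 CPM, 8.29-fold below them (log2 -3.05 ± 0.14, edgeR adjusted p = 5.93e-19). The step between the 2 CpG groups was -0.65 ± 0.16 on the log2 scale (edgeR adjusted p = 0.00512), without overlap, but was not called with counts thinned to the smallest total (-0.43, adjusted p = 0.196). *Ly86* was at 176, 178 and 134 CPM with CpG, 1.78-fold below unstimulated cells (log2 -0.83 ± 0.14, edgeR adjusted p = 3.87e-06). Adding IFNα to CpG raised *Ly86* 1.51-fold to 220, 257 and 257 CPM (log2 0.60 ± 0.14, edgeR adjusted p = 0.00219), which overlapped the unstimulated samples (log2 -0.24, 95% interval -0.51 to 0.04, edgeR adjusted p = 0.116). That last difference was called, with *Ly86* lower, in 7 alternatives: with RLE factors (log2 -0.25, adjusted p = 0.098), upper-quartile factors (-0.37, 0.0147), library totals only (-0.27, 0.075), a stricter filter (-0.34, 0.0257), only the groups compared (-0.25, 0.0853), thinned counts (-0.31, 0.041), and without Unstimulated replicate 2 (-0.35, 0.0274).

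*Cd180* per *Ly86* within a library was 1.04 ± 0.324 in Unstimulated, 0.446 ± 0.0574 in IFNα, 0.338 ± 0.0659 in CpG and 0.137 ± 0.0234 in CpG + IFNα. CpG + IFNα samples were below every other sample, and the unstimulated ones above every other. A difference between the effects of IFNα with and without CpG was not shown for either gene, with an interaction of -0.13 (95% interval -0.54 to 0.28) for *Cd180* and of -0.02 (-0.42 to 0.37) for *Ly86*.

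**Figure D3:**
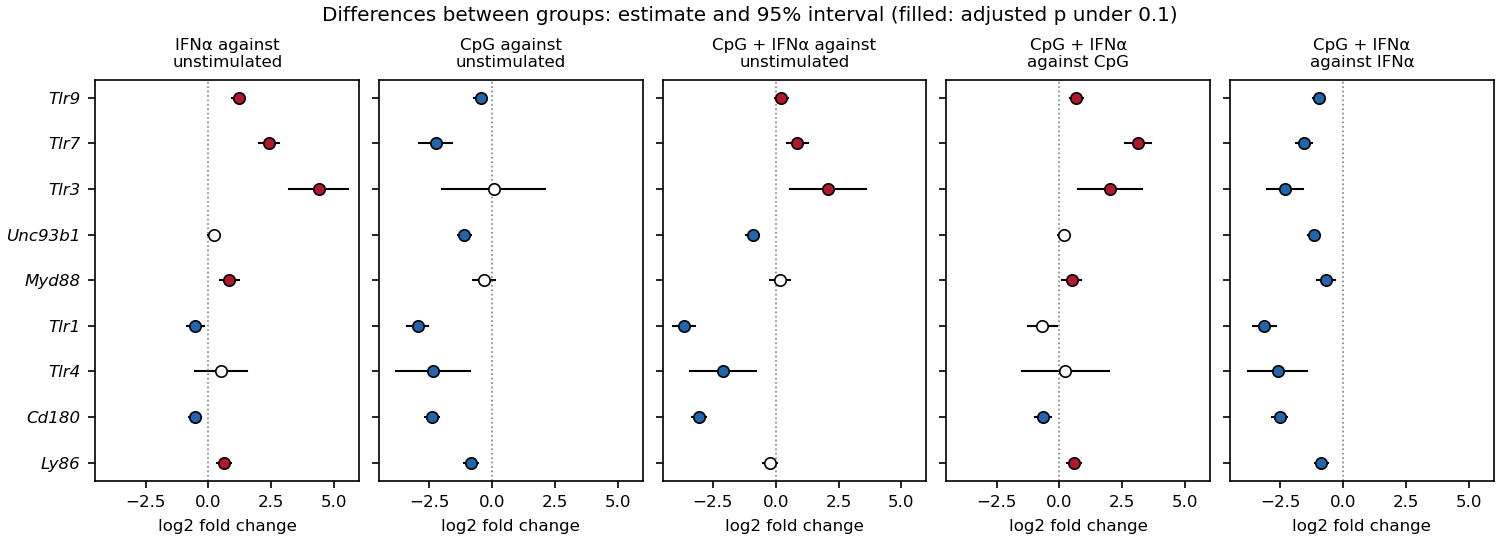
Log2 fold change (x axis) of the 9 members tested in 5 comparisons, one per panel, with the 95% interval as a line. Red points were called up-regulated and blue points down-regulated at an edgeR adjusted p under 0.1, and white points were not called. In CpG + IFNα against IFNα all 9 points lie below 0, of which *Tlr3* and *Tlr4* passed the filter through their IFNα samples alone.

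Genes that work beside the members were taken by list, and the shares of all genes called are given with each count. The endosomal trafficking and processing list, which covers the chaperones, transporters, proteases and nucleases that deliver, cleave or feed the endosomal TLRs, held 19 genes, of which 17 were tested. With IFNα, 4 rose (12.4% of all genes) and 2 fell (11.9%). *Ctss*, a cathepsin, rose 1.52-fold (log2 0.60 ± 0.11, edgeR adjusted p = 7.98e-05) and *Dnase2a*, the lysosomal DNase II, 1.64-fold (adjusted p = 0.00243), whereas *Pld4*, an endosomal exonuclease, fell 2.39-fold (adjusted p = 1.85e-06) and *Ctsb*, another cathepsin, 1.37-fold (adjusted p = 0.0509). With CpG, 12 of the 17 fell (38.4% of all genes) and 4 rose (36.5%), with a median log2 fold change of -1.74 against -0.03 over all genes. *Ctss* fell 3.61-fold (edgeR adjusted p = 2.22e-15) and *Lgmn*, an asparagine endopeptidase, 5.84-fold (adjusted p = 3.69e-15). Among those that rose were *Arl8b*, a lysosomal GTPase, at 2.50-fold (adjusted p = 2.2e-10) and *Slc15a3*, a lysosomal peptide transporter, at 2.05-fold (adjusted p = 0.000548).

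With IFNα added to CpG, 2 of these genes rose (6.54% of all genes) and 2 fell (8.83%). *Slc15a3* rose a further 2.31-fold (edgeR adjusted p = 1.89e-06), so that with both agents it stood 4.72-fold above unstimulated cells, and *Ctss* rose 1.46-fold (adjusted p = 0.001). *Pld4* fell a further 2.39-fold (adjusted p = 0.002), to 16.3-fold below unstimulated cells, and *Arl8b* fell 1.39-fold (adjusted p = 0.00315).

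Of 23 adaptors and kinases, 20 were tested. IFNα raised 5 (12.4% of all genes) and lowered 3 (11.9%). *Peli1*, a ubiquitin ligase of the pathway, rose 1.75-fold (edgeR adjusted p = 3.78e-06) and *Ticam1*, which encodes the TLR3 adaptor TRIF, 2.06-fold (adjusted p = 0.000376), whereas *Ikbkb*, the kinase IKKβ, fell 1.45-fold (adjusted p = 0.00132) and *Traf3* 1.42-fold (adjusted p = 0.0353). CpG raised 3 (36.5% of all genes) and lowered 7 (38.4%), the second a share near that of all genes, among them *Ikbkb* at 2.78-fold (adjusted p = 5.24e-12) and *Irak2*, a kinase recruited through MyD88, at 2.27-fold (adjusted p = 5.1e-07). *Ube2n*, which encodes the ubiquitin-conjugating enzyme Ubc13, rose 2.22-fold with CpG (adjusted p = 6.18e-05), and *Map3k7* (TAK1) rose 1.56-fold (adjusted p = 0.000998). Adding IFNα to CpG raised 3 (6.54% of all genes) and lowered 2 (8.83%), with *Tbk1*, the kinase downstream of TRIF, up 1.34-fold (edgeR adjusted p = 0.0451), *Pik3ap1*, the adaptor BCAP, up 1.66-fold (adjusted p = 0.0453), and *Irak2* down a further 1.57-fold (adjusted p = 0.0234). The median log2 fold change of this list was 0.01 with IFNα and -0.23 with CpG.

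Of 12 inhibitors of TLR signalling, 9 were tested. With CpG, 6 of them fell (38.4% of all genes), led by *Dok3* at 37.1-fold (239 to 6.33 CPM, edgeR adjusted p = 6.64e-21) and *Sigirr* at 11.4-fold (27.98 to 2.33 CPM, adjusted p = 5.71e-10). With IFNα, 1 of the 9 was called, where 11.9% of all genes fell: *Tnfaip3*, the ubiquitin-editing enzyme A20, fell 5.72-fold (log2 -2.52 ± 0.25, edgeR adjusted p = 5.63e-10). The effect of IFNα on *Tnfaip3* differed with CpG present, with an interaction of 2.57 ± 0.30 on the log2 scale (adjusted p = 2.3e-07). Adding IFNα to CpG lowered *Irak3*, an inhibitory IRAK, 1.88-fold (adjusted p = 0.024) and *Dok3* 2.19-fold (adjusted p = 0.069).

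With CpG + IFNα against unstimulated cells, 12 of the 17 trafficking and processing genes, 8 of the 20 adaptors and kinases and 7 of the 9 inhibitors fell, against 38.8% of all genes, and 5 and 4 of the first 2 lists rose, against 37.6%. The share of adaptors and kinases that fell was near that of all genes, and the shares that rose were below it.

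Of 3 other co-receptors, *Ly96* and *Cd36* were tested. *Ly96*, which encodes MD-2, the TLR4 partner that is related to MD-1, had 5, 4 and 2 counts in unstimulated cells and 13, 23 and 19 with IFNα, a 3.93-fold rise (edgeR adjusted p = 0.00088) in a gene that passed the filter only because of its IFNα samples. *Cd36*, a scavenger receptor that assists TLR2 with TLR6, had 38.2, 37.4 and 32.6 CPM in unstimulated cells and 167, 170 and 166 CPM with CpG, a 4.64-fold rise (edgeR adjusted p = 1.59e-14). IFNα lowered *Cd36* 2.77-fold without CpG (adjusted p = 7.97e-06) and 3.95-fold with it (adjusted p = 4.82e-14).

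**Figure D4:**
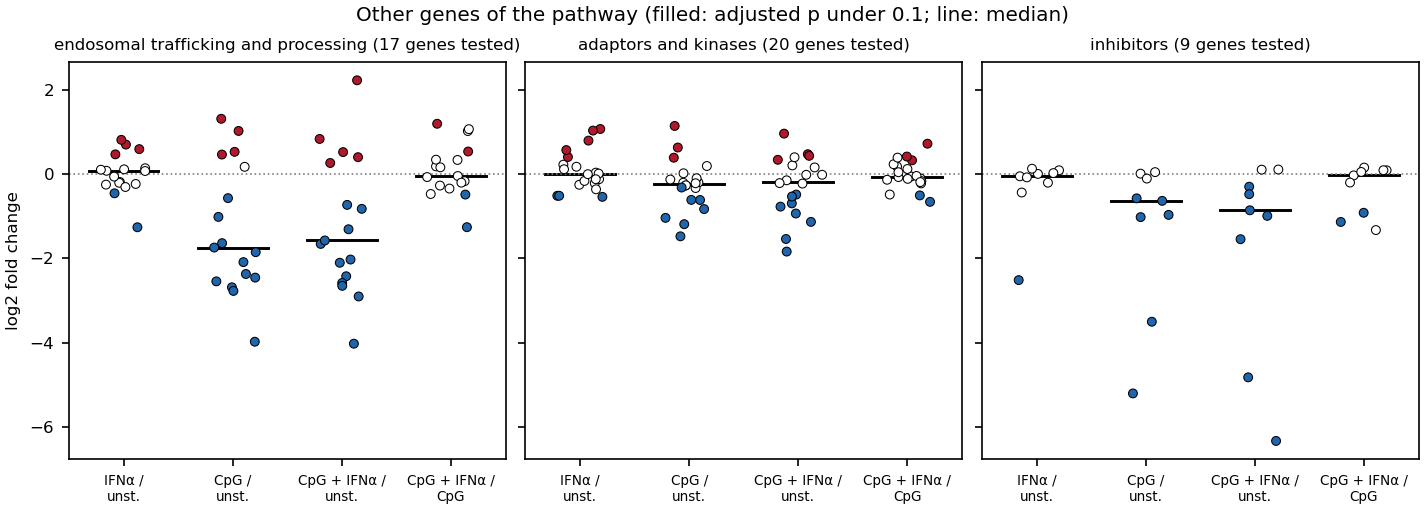
Log2 fold change (y axis) of each tested gene of 3 pathway lists in 4 comparisons (x axis), with the median of the list as a line. Red points were up-regulated, blue points down-regulated and white points not called by edgeR at an adjusted p under 0.1. With CpG, 12 of 17 trafficking and processing genes and 6 of 9 inhibitors fell.

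Patterns over the 12 samples, on log2 of CPM + 1, were compared by Pearson's r as a description only, since the points share 4 group means. Among the members, *Tlr9* was most like *Tlr7* (r = 0.943) and *Tlr1* most like *Cd180* (r = 0.973), while *Cd180* and *Ly86* had r = 0.592. *Unc93b1* was more like *Tlr1* (r = 0.915) than like *Tlr9* (r = 0.694). Of all genes tested, those nearest to *Tlr9* were *Pkib*, *Tor1aip1* and *Zc3hav1* (r = 0.985 to 0.984), and those nearest to *Tlr7* were *Selenow*, *Trim12c* and *Ifi206* (r = 0.996 to 0.992). *Cotl1*, *Hvcn1* and *Crip1* were nearest to *Cd180* (r = 0.997 to 0.995), *H2-Oa*, *Tmsb10* and *Icosl* to *Tlr1* (r = 0.994 to 0.992), and *H2-T23*, *Rnf31* and *Faah* to *Ly86* (r = 0.970 to 0.966). *Nt5c3*, *Psme2b* and *Slfn1* were nearest to *Tlr3* (r = 0.969 to 0.959), and *Scml4*, *Gimap4* and *Gna15* to *Unc93b1* (r = 0.985 to 0.982). The nearest genes to *Tlr4* were *Zfp101*, *Btbd2* and *Tex9* (r = 0.964 to 0.961), and *Myd88* had the least close neighbours, with *Gm4070*, *Ogfrl1* and *Ube2q1* at r = 0.941 to 0.926.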

How the data were processed

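RNA of FO B cells was measured in 12 samples, 3 per group. The authors extracted barcodes with UMI-tools 1.1.2, trimmed with Trim Galore 0.6.7, mapped to GRCm38 with HISAT2 2.2.1, assigned reads with featureCounts 2.0.1 and deposited UMI counts per gene, not normalized. *Tlr9* was lengthened by 3 kb before counting. The annotation release is not given in the sources used here; all 22561 gene identifiers are in GENCODE M21, which gave the positions. From these counts, edgeR 4.0.16 (R 4.3.3) computed TMM factors, filterByExpr by group kept 9431 genes, and glmQLFit and glmQLFTest fitted the 4 groups in a single model (8 residual degrees of freedom), with Benjamini-Hochberg adjustment over all genes tested and a call at an adjusted p under 0.1. A standard error is the log2 fold change divided by the square root of F. The interaction subtracts the effect of IFNα without CpG from that in its presence. Counting intervals are exact 95% intervals that cover counting error only; depth ran from 922450 to 2923865 counts. Figures were drawn with matplotlib 3.10.9. The test was checked on simulated counts.

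The members, gene lists and cell markers were chosen with earlier results of these data known. Named genes are all members and, per list and comparison, up to 2 genes with the smallest p in each direction, plus the 3 genes nearest to each member. Cell markers, among them *Ms4a1*, *Mpeg1* and markers that were not tested, were named outside this rule, after their values were seen. Alternatives were other scalings, filters, thresholds, DESeq2 1.42.0, counts thinned at random to the smallest total, fits restricted to the groups compared, a replicate block and each sample left out. Removal of mitochondrial and rRNA genes was added after the data were seen. Results that rest on 1 surface marker are not reported here.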

Additional observations from a re-analysis of the deposited data

Results flagged for a closer look

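In the main fit, the effect of IFNα on *Tlr9* was called different between cells with and without CpG. The CpG dose of the combined group is not settled and culture of unstimulated cells is not given, so that these may differ as well. Its log2 fold change was 1.20 without CpG and 0.68 with CpG, and the interaction was -0.52 (edgeR adjusted p = 0.0507), with all 3 samples higher in both settings. The value did not pass the test with DESeq2 (-0.49, adjusted p = 0.117), without a filter on low counts (-0.46, adjusted p = 0.147) or without mitochondrial and rRNA genes (-0.45, adjusted p = 0.108). It also missed the threshold with library totals as the only scaling (-0.44, adjusted p = 0.109) and in 4 of the 12 fits that left out a sample. The cause of the difference was not tested.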

How the results depend on the processing

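Of 1154 values recomputed for the members, 1076 kept their direction and side of the threshold, 31 lost a call, 12 gained one and 35 changed sign. The counts of calls here are over the members tested in each fit, *Tlr3* and *Tlr4* included, and *Tlr6* where it entered. Requiring a fold change over 2 as well as an adjusted p under 0.1 left 3 of 7 calls with IFNα, 4 of 7 with CpG + IFNα, 2 of 6 in CpG + IFNα against CpG and 0 of 1 in the interaction. A test against a fold change of 2 left 2, 4 and 1 in the same comparisons, 4 of 7 with CpG, 5 of 9 in CpG + IFNα against IFNα and 0 in the interaction. Counts thinned to the smallest total left 3 in CpG + IFNα against CpG. The interaction gave 0 with library totals only, with DESeq2 and at an adjusted p under 0.05. Leaving out each sample in turn gave 6 to 8 calls with IFNα, 7 to 8 with CpG, 7 to 9 with CpG + IFNα, 4 (without CpG replicate 2) to 7 in CpG + IFNα against CpG, 10 each time in CpG + IFNα against IFNα, where *Tlr6* entered through its IFNα samples, and 1 to 2 in the interaction. Without *Tlr6* these were 6 to 8, 7 to 8, 6 to 8, 4 (without CpG replicate 2 or CpG + IFNα replicate 1) to 6, 9 each time, and 0 to 1, the interaction of *Tlr9* being lost in 4 of 12 cases.

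The values that changed sign were not called with all samples. For *Tlr3* with CpG, the difference was -0.042 with upper-quartile factors and -0.027 with counts thinned. The interaction of *Cd180* was 0.15 with counts thinned. That of *Unc93b1* was 0.0022 with upper-quartile factors, 0.031 with library totals only, 0.011 without a filter and 0.027 without mitochondrial and rRNA genes. That of *Ly86* was 0.0053 with RLE factors, 0.023 with upper-quartile factors, 0.058 with library totals only, 0.039 without a filter, 0.0096 with the stricter filter, 0.00011 with DESeq2 and 0.046 without mitochondrial and rRNA genes. With each sample left out in turn, *Tlr3* with CpG ran from -0.50 to 0.89, *Myd88* in CpG + IFNα against unstimulated cells from -0.00016 to 0.36, *Tlr4* in CpG + IFNα against CpG from -0.80 to 0.77, and the interactions of *Unc93b1*, *Tlr1*, *Tlr4*, *Cd180* and *Ly86* from -0.18 to 0.063, -0.47 to 0.19, -1.31 to 0.27, -0.25 to 0.034 and -0.16 to 0.10. The cause was not tested.

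A replicate block (the replicate number as a term) changed 0 of 54 calls, with 7, 7, 7, 6, 9 and 1 members called as in the fit without it. Deviations from the group means of same-numbered samples correlated at -0.07 to 0.20, over 0.1 in 5 of 18 pairs, against 0 of 36 pairs with other numbers. A sample correlated best with its own number in 20 of 36 cases (17 of 18 among the stimulated groups), so that not every sample did, and the labels state no pairing. The library names in the barcode list carry WT1 to WT3 in each group, without saying what they mark, and the haemoglobin gene *Hbb-bs* was highest in replicate 1 and lowest in replicate 3 of every group. Whether the numbers mark a shared source was not tested further. Depth limits *Tlr3*, *Tlr4* and *Tlr6*, where at least 1 group held 0 to 3 counts in every sample.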
